A study of Rattus norvegicus with 20 samples.

Results

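Transcripts of 10 inflammatory cytokine genes were followed in 20 RNA-seq libraries from rats with a cervical spinal cord injury, with or without electrical stimulation of the motor cortex. The genes were chosen by name and were Il1a, Il1b, Il1rn, Tnf, Il6, Il10, Il18, Il33, Csf1 and Tgfb1, which make 10 of the 30443 genes in the table. Where a symbol had more than 1 entry, as Tnf had with 2, the entry of highest mean was used. Of the 10, 8 reached 1 FPKM (sequenced fragments scaled to the length of the transcript and the size of the library) in at least 1 library and were tested together with the other genes that did so, 15210 in all. Tnf and Il10 did not reach it, and Il1b and Il6 reached it only in white matter of 1 animal, so that their passing was itself set by that animal.

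The 4 animals were wild-type adult females of the outbred Long-Evans strain, about 6 to 8 months old and 275 to 350 g in weight. All 4, the controls included, received a hemicontusion at cervical level 4 with a displacement of 0.7 mm. An electrode array was implanted 2 weeks later into the motor cortex opposite to the injured side, with wire tips that penetrated the tissue. By the paper, dexamethasone was given before this surgery. In 2 of the 4 animals stimulation of the cortex began, by the paper, about 1 week after the implantation. It ran for 1 week, 5 hours a day, at 10 Hz and 80% of the movement threshold. The 2 control animals were connected without current, and tissue was taken after the stimulation period. From each animal 5 pieces of tissue were taken. Region 1 was subcortical white matter below the implant, region 2 the same white matter in the other hemisphere, region 3 the cord rostral to the injury at about cervical levels 2 to 4, region 4 the cord at the lesion and region 5 the cord caudal to it, by the labels at about levels 4 to 6. There was no uninjured animal and no injured animal without an implant, so the levels below are all levels after injury and implantation. Each group held 2 animals per region.

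Cytokines are secreted proteins by which immune cells, glia and vessel cells signal to each other. In the injured central nervous system interleukin 1, tumor necrosis factor and interleukin 6 belong to the early wave of signals that draws blood leukocytes into the tissue, whereas interleukin 10 and transforming growth factor beta restrain it and the latter also drives scar formation. Interleukin 33 is held in the nuclei of glia and is set free by damaged cells, and colony stimulating factor 1 keeps microglia and macrophages alive. Several of these genes are silent in resting tissue and are switched on through promoter sites for NF-kappaB, AP-1 and C/EBP factors.

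Because Il1b, Il1a, Il1rn and Il6 all stood highest in the same pair of libraries (below), the 250 bases before their annotated start sites are shown. They come from RefSeq on GRCr8, a later build than the one the authors aligned to, and 8 of the 10 genes had an entry there. Capitals mark matches, on either strand, to the AP-1 motif TGANTCA, the cyclic AMP response element TGACGTCA, the C/EBP motif TTNNGNAAT, the TATA box TATAAA and the kappaB motif. No match overlaps another.
Il1b, chr3:137036582-137036831, minus strand: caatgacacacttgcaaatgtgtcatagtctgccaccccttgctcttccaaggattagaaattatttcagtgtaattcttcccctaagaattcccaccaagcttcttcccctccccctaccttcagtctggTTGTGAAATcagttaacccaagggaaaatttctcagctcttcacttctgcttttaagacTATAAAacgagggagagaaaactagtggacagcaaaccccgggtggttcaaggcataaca
Il1a, chr3:136990018-136990267, minus strand: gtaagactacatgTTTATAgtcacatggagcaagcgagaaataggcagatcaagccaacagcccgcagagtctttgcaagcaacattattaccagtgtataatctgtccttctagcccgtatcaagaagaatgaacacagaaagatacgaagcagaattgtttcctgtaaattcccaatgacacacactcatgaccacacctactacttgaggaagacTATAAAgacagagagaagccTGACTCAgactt
Il1rn, chr3:27520072-27520321, plus strand: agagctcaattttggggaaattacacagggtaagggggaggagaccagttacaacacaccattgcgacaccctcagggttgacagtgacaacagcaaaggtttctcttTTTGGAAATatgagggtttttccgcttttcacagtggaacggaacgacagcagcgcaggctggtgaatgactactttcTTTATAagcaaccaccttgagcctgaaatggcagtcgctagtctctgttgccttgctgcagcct
Il6, chr4:5894576-5894825, minus strand: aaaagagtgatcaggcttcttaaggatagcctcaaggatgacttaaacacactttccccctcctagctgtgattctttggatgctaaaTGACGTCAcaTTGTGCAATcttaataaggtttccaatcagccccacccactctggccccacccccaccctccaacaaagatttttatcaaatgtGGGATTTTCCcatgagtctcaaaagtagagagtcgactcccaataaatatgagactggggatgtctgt

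Counted from the start site, the Il1b window held a C/EBP match at position -119 and a TATA box at -60. The Il1a window held an AP-1 match at -12 and TATA boxes at -32 and, on the other strand, at -237. The Il1rn window held a C/EBP match at -142 and a TATA box on the other strand at -64. Of the 4, Il6 alone had a kappaB match, at -68, and a cyclic AMP response element, at -162, beside a C/EBP match at -152. Among 33469 promoter windows of the same length, 6.33% held the kappaB motif, 6.34% AP-1, 1.59% the cyclic AMP response element, 10.9% C/EBP and 12.9% a TATA box. The matches are a description of these letters. Il1a and Il1b are neighbors in the annotation. The paper gave default parameters and named no strand setting, so reads from overlapping antisense transcripts cannot be told apart from theirs.

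The tissue labels were checked against marker genes. Summed over 6 oligodendrocyte markers, cord had 7314 to 10695 FPKM and the pieces labelled white matter 690 to 2937 FPKM. The sum of 5 cortical neuron markers was 364 to 594 FPKM in white matter against 5.60 to 24.9 FPKM in cord, so transcripts of cortical neurons were present in the former. The white matter libraries of stimulated animal 2 stood apart from the other 6, as the values below show, and the comparisons of regions are given with 20 libraries and with the 18 that leave these 2 out. Fewer cells of a type and less RNA per cell cannot be told apart in such tissue.

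Across all libraries Il33 and Csf1 were the most abundant of the 10 genes, with means of 10.4 and 9.29 FPKM (SD 4.31 and 5.48, n = 20), and both exceeded 1 FPKM in every library. Il18 and Tgfb1 had means of 3.64 and 3.36 FPKM (SD 1.90 and 1.84, n = 20) and more than 1 FPKM in 18 libraries each. The mean of Il1b, 4.06 FPKM, lay above these but was carried by 1 animal (SD 15.4), and its median was 0.250 FPKM. The genes of the early wave were scarce, and so were Il1rn and Il10. Il1a reached 1 FPKM in 5 libraries, Il1rn in 4, Il1b in 2 and Il6 in 1, and Tnf and Il10 were listed at the floor of the table, 0.1 FPKM, in all 20.

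**Figure D1:**
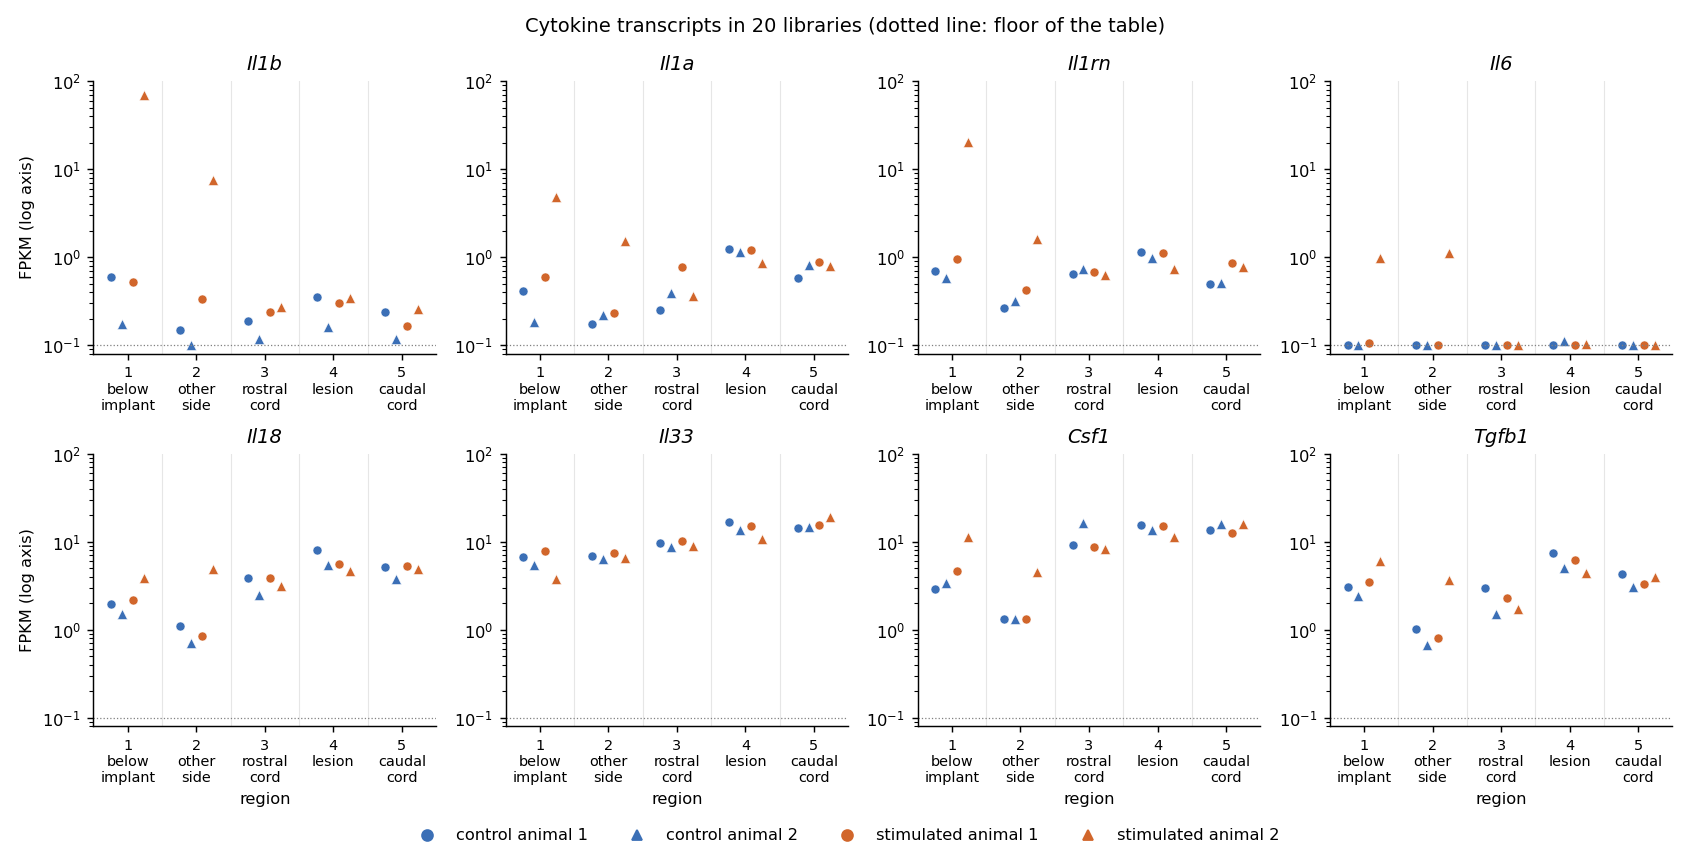
FPKM on a log axis of the 8 genes that passed the filter, by region, with a point for each animal and no averaging. Il1b, Il1a, Il1rn and Il6 have 1 point far above the rest in region 1 and in region 2, both from stimulated animal 2, for example 69.0 FPKM of Il1b, whereas Il33, Csf1, Il18 and Tgfb1 differ mostly between regions.

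Il1b encodes interleukin 1 beta, the secreted form of interleukin 1 that inflammasomes release. In region 1 it was listed at 0.591 and 0.172 FPKM in control animals 1 and 2 and at 0.525 and 69.0 FPKM in stimulated animals 1 and 2. In region 2 the controls had 0.151 and 0.1 FPKM and the stimulated animals 0.333 and 7.59 FPKM. So a single animal was high on both sides of the brain, and the other stimulated animal lay between the controls in region 1 and slightly above them in region 2. In the 12 cord libraries, the lesion included, Il1b ranged from 0.117 to 0.351 FPKM with a median of 0.238. In region 1 the stimulated animals were 4.24 higher than the controls on the log2 scale (SE 2.63, limma adjusted p = 0.712, n = 2 and 2), and without stimulated animal 2 the difference was 0.72. In region 2 it was 3.69 (SE 1.72, limma adjusted p = 0.949), and 1.44 without that animal. Control animal 2 was at the floor of 0.1 FPKM in region 2, so the size of both differences there depends on the floor.

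Il1a encodes interleukin 1 alpha, which acts on the same receptor as interleukin 1 beta and is set free by dying cells. Its region 1 values were 0.417 and 0.182 FPKM in the controls and 0.599 and 4.79 FPKM in stimulated animals 1 and 2. In region 2 they were 0.176 and 0.220 FPKM in the controls and 0.234 and 1.53 FPKM in the stimulated animals. Both stimulated animals thus exceeded both controls in each hemisphere, by a small step in animal 1 and a large one in animal 2. The differences, 2.62 (SE 1.18) and 1.60 (SE 1.04) on the log2 scale, did not pass the limma test (adjusted p = 0.712 and 0.949), and they were 1.12 and 0.25 without stimulated animal 2. At the lesion Il1a reached 1 FPKM in 3 of 4 libraries, and Il1b in none. Region 4 held 1.24 and 1.16 FPKM in the controls and 1.22 and 0.863 FPKM in the stimulated animals, and region 3 held 0.253, 0.393, 0.781 and 0.358 FPKM in the same order. All 4 lesion libraries were above all 4 rostral ones. Over 20 libraries this difference of 1.44 on the log2 scale was not called (SE 0.75, limma adjusted p = 0.181), and with the 2 white matter libraries of stimulated animal 2 left out the same difference was (SE 0.34, limma adjusted p = 0.00397).

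Il1rn encodes the interleukin 1 receptor antagonist, which occupies the receptor without signaling. In region 1 it was at 0.689 and 0.585 FPKM in the controls and at 0.953 and 20.3 FPKM in stimulated animals 1 and 2. In region 2 it was at 0.262 and 0.314 FPKM in the controls and at 0.421 and 1.61 FPKM in the stimulated animals. The stimulated animals were again above the controls in both hemispheres, with stimulated animal 2 far above. The differences were 2.79 (SE 1.61) and 1.52 (SE 0.75) on the log2 scale (limma adjusted p = 0.712 and 0.949), and 0.59 and 0.56 without stimulated animal 2. In region 5 the controls had 0.490 and 0.510 FPKM and the stimulated animals 0.847 and 0.765 FPKM, which do not overlap. That difference of 0.69 (SE 0.12) had an unadjusted p of 0.0049 in limma and an adjusted p of 0.797.

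The balance of agonist and antagonist transcripts differed between libraries. The ratio of Il1b to Il1rn, both in FPKM, was 3.40 in region 1 and 4.72 in region 2 of stimulated animal 2, and between 0.160 and 0.857 in the other 18 libraries. The ratio of Il1a to Il1rn was 1.07 to 1.19 at the lesion and 1.03 to 1.58 in caudal cord, but 0.393 to 1.16 in rostral cord, where 1 of 4 libraries exceeded 1. It was 0.236 to 0.949 in white matter. Il1b transcripts thus exceeded those of Il1rn only in the 2 libraries that are singled out by their high Il1b, so a high ratio there was partly set by that choice. At the lesion and caudal to it Il1a transcripts slightly exceeded those of Il1rn in all 8 libraries.

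**Figure D2:**
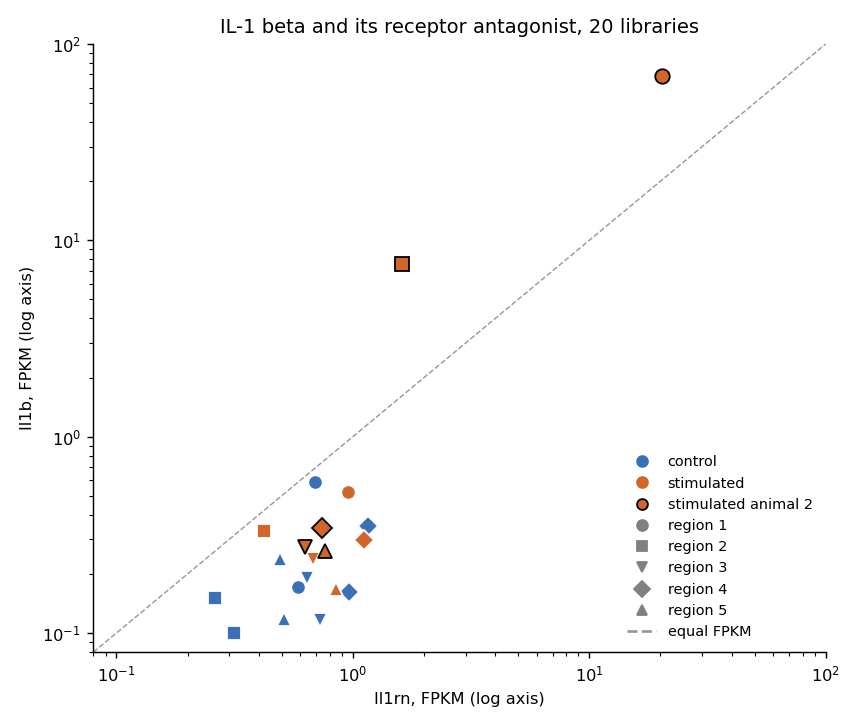
Il1b against Il1rn in FPKM, both on log axes, with a point for each of 20 libraries, the shape giving the region and the color the group, and a dashed line of equal FPKM. The points of stimulated animal 2 in regions 1 and 2 are the only ones above the line, at ratios of 3.40 and 4.72, and the other 18 are below it.

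Il6, the main inducer of acute phase signaling through gp130, was listed at 0.1 FPKM in 15 of 20 libraries. It was at 0.982 FPKM in region 1 and 1.11 FPKM in region 2 of stimulated animal 2, and at most 0.113 FPKM elsewhere. It passed the filter through 1 library alone, and no fold change is given because the controls of regions 1 and 2 were at the floor. Tnf, the founder of the tumor necrosis factor family, and Il10, which restrains macrophages, were listed at 0.1 FPKM in all 20 libraries, including those in which Il1b was highest.

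The remaining genes of the set followed in part. In region 1 Csf1 was at 2.87 and 3.38 FPKM in the controls and at 4.69 and 11.2 FPKM in stimulated animals 1 and 2, a difference of 1.22 on the log2 scale (SE 0.48, limma adjusted p = 0.712), or 0.59 without stimulated animal 2. Il18 was at 1.95 and 1.52 FPKM in the controls and at 2.17 and 3.87 FPKM in the stimulated animals (0.75, SE 0.37, limma adjusted p = 0.712), or 0.33 higher without that animal. Tgfb1 was at 3.01 and 2.44 FPKM in the controls and at 3.50 and 6.04 FPKM in the stimulated animals (0.76, SE 0.34, limma adjusted p = 0.712), or 0.37 higher without it. In each of these 3 genes stimulated animal 1 was above both controls by a small margin and stimulated animal 2 was highest. Il33 had 6.70 and 5.38 FPKM in the controls and its highest and lowest white matter values, 7.78 and 3.72 FPKM, in stimulated animals 1 and 2, so the groups overlapped (-0.16, SE 0.42, limma adjusted p = 0.908). In that library of stimulated animal 2, 53.9% of all genes were lowest of the 4. In region 2 the difference of Csf1 was 0.90 (SE 0.69, limma adjusted p = 0.949), and 0.01 without stimulated animal 2.

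Counted over the 8 genes, the ranges of the groups were apart in 6 in region 1 (Il1a, Il1rn, Il6, Il18, Csf1 and Tgfb1), all higher with stimulation, against 21.2% of all genes tested that were higher without overlap. In region 2 this held for 4 of 8 (Il1a, Il1b, Il1rn and Csf1), against 20.2%. Il1b and Il6 were tested at all only because they were high in these libraries of stimulated animal 2, and without them the counts were 5 of 6 and 3 of 6. The separation of Il6 in region 1 came from 0.106 FPKM against controls at the floor, and that of Csf1 in region 2 from 1.32 against 1.31 FPKM. The median difference of the 8 was 1.45 in region 1 and 1.37 in region 2 on the log2 scale, beside -0.03 and 0.08 over all genes. For the 6 genes other than Il1b and Il6 it was 0.99 and 1.13. Without stimulated animal 2 the median of the 8 was 0.48 and 0.10, beside 0.06 and 0.05 over all genes. In cord the median of the 8 with all animals was 0.03, -0.22 and 0.22 in regions 3, 4 and 5. In region 3 Il1b was higher and Csf1 lower without overlap, against 5.14% and 24.7% of all genes, in region 4 no gene of the set separated the groups, against 20.2% of all genes in either direction, and in region 5 Il1rn and Il33 were higher, against 18.5%. None of the 8 passed the limma test in any region, where 0.00% of all genes passed in regions 1 to 4 and 0.0197% in region 5. An unadjusted p under 0.05 was reached by 828 genes (5.44%) below the implant, by 215 (1.41%) on the other side, and by 522 (3.43%), 341 (2.24%) and 546 (3.59%) in rostral, lesioned and caudal cord. Il1rn in caudal cord was the only gene of the set among them. With 2 animals in a group, the p-values measure the spread between 4 animals.

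Whether the response below the implant exceeded that in the other hemisphere was tested on the differences between regions 1 and 2 within each animal. The difference between the effects, region 1 minus region 2, was 1.02 for Il1a (SE 0.62), 1.27 for Il1rn (SE 1.05), 0.54 for Il1b (SE 1.08) and 0.32 for Csf1 (SE 0.55) on the log2 scale. It was below 0 for the other 4, at -0.46 for Il18 (SE 0.64), -0.29 for Tgfb1 (SE 0.74), -0.23 for Il33 (SE 0.30) and -0.05 for Il6 (SE 0.16). The controls of Il6 were at the floor in regions 1 and 2, so its difference and SE depend on the floor. The limma adjusted p of the 8 ran from 0.880 to 0.951. Without stimulated animal 2 the difference was 0.87 for Il1a, 0.03 for Il1rn, -0.72 for Il1b and 0.58 for Csf1, and 0.40, 0.41, 0.19 and 0.08 for Il18, Tgfb1, Il33 and Il6. None of the 8 genes and 0.00% of all genes passed, while 643 (4.23%) fell under 0.05 unadjusted and 0 of the 8 did. The median of all genes in this test was -0.13, and -0.02 after quantile normalization. In absolute terms stimulated animal 2 had 69.0 FPKM of Il1b in region 1 against 7.59 in region 2, and 20.3 FPKM of Il1rn against 1.61, whereas Il6 and Il18 were higher on the other side, at 1.11 and 4.93 FPKM against 0.982 and 3.87 FPKM.

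Markers of blood-borne and resident immune cells moved with these values, and in region 2 those of astrocytes and oligodendrocytes did too. The sum of 6 neutrophil markers was 119 and 12.0 FPKM in regions 1 and 2 of stimulated animal 2 and 0.916 to 3.11 FPKM in the other 6 libraries from white matter. In that animal 1 and 3 of the 6 were at the floor. In region 1 of that animal S100a8 was at 34.5 and S100a9 at 77.4 FPKM, but the granule genes Mpo, Camp and Elane were at 0.1, 0.284 and 0.371 FPKM. The sum of 6 T cell markers was 6.42 and 4.65 FPKM there and 0.764 to 1.07 FPKM in the others, with none of the 6 at the floor. The 8 markers of infiltrated phagocytes summed to 662 and 136 FPKM against 22.2 to 200 FPKM, and 10 markers of microglia and macrophages to 442 and 469 FPKM against 55.9 to 264 FPKM. Markers of fibroblasts and meninges summed to 167 and 57.3 FPKM against 13.6 to 59.0 FPKM. In region 2 astrocyte markers summed to 1398 FPKM in that animal against 589 to 741 FPKM in the others. Oligodendrocyte markers summed to 1377 FPKM there against 690 to 1060 FPKM. In region 1 the astrocyte sum was 1521 against 1110 to 1480 FPKM, and the oligodendrocyte sum was lowest, at 1511 against 1713 to 2937 FPKM. The animals had been perfused with saline before dissection. The part of these cells in the cytokine values was not tested.

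**Figure D3:**
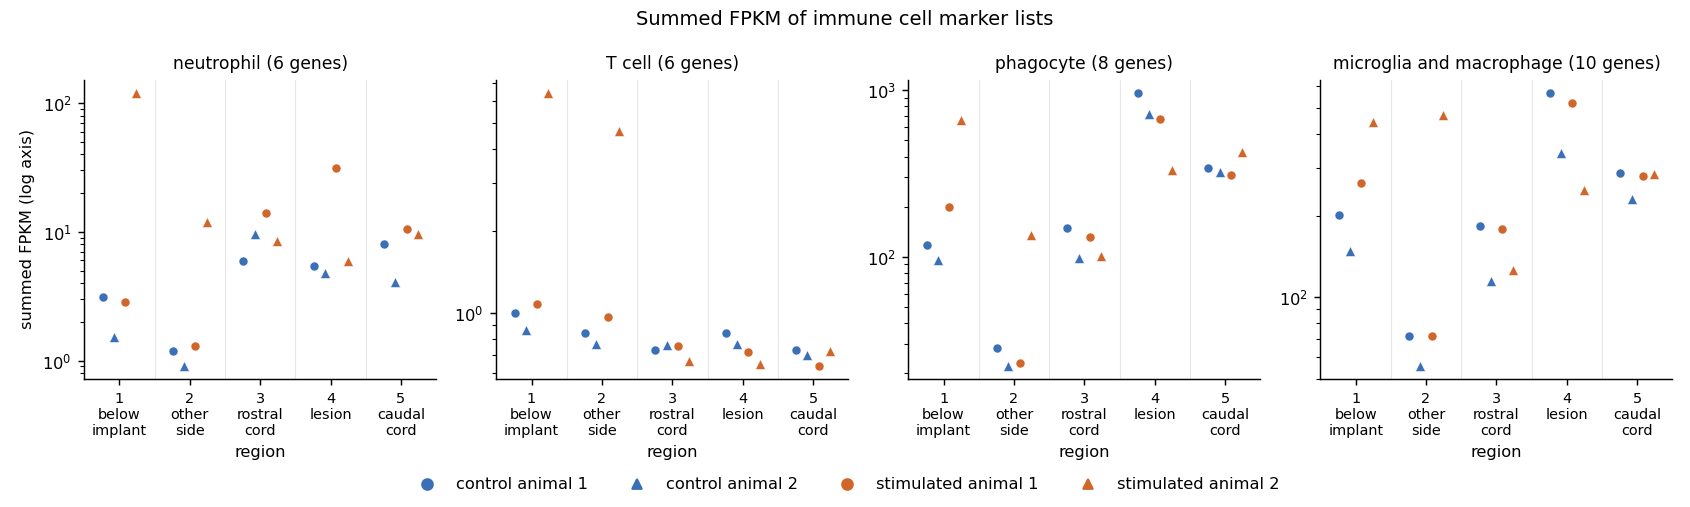
Summed FPKM on a log axis of marker lists for neutrophils, T cells, infiltrated phagocytes and microglia with macrophages, by region, with a point for each animal. In region 1 stimulated animal 2 is highest in all 4 lists, for example at 119 FPKM of neutrophil markers, and within the cord of the other 3 animals the phagocyte and microglia lists are highest at the lesion.

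The 8 genes were not high in stimulated animal 2 as such. Of the genes above the floor, 7 of 8 had their highest value in that animal in region 1 and 7 of 8 in region 2, against 24.2% and 43.9% of all genes tested, whereas 1 of 7 did in region 3, 0 of 8 in region 4 and 2 of 7 in region 5, against 7.50%, 11.5% and 45.4%. For Il1b and Il6 the filter had fixed this in white matter, and without them the counts were 5 of 6 in region 1 and 5 of 6 in region 2. At the lesion 6 of 8, namely Csf1, Il18, Il1a, Il1rn, Il33 and Tgfb1, were lowest in it, beside 55.1% of all genes.

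Tgfb1 encodes transforming growth factor beta 1, a driver of glial and fibrous scar. At the lesion it was at 7.39 and 5.04 FPKM in the controls and at 6.16 and 4.43 FPKM in the stimulated animals. In rostral cord it was at 2.98 and 1.49 FPKM and at 2.26 and 1.71 FPKM in the same order, and in caudal cord at 4.28, 3.07, 3.30 and 3.95 FPKM. Every lesion library was above every other cord library. Between lesion and caudal cord this held for 1.84% of all genes. The lesion exceeded rostral cord by 1.47 on the log2 scale, or 2.77-fold (SE 0.40, limma adjusted p = 0.0156), and caudal cord by 0.64 (SE 0.40, limma adjusted p = 0.293). Caudal cord exceeded rostral cord by 0.83 (SE 0.40, limma adjusted p = 0.205), without overlap, and 20.5% of all genes were higher there without overlap. With 18 libraries all 3 differences passed, with limma adjusted p of 0.000129, 0.0455 and 0.0166.

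Il33, the nuclear alarmin of astrocytes and oligodendrocytes, was higher at the lesion and below it than above it. Region 4 held 16.6 and 13.5 FPKM in the controls and 15.1 and 10.6 FPKM in the stimulated animals, and region 5 held 14.4 and 14.6 FPKM and 15.4 and 19.1 FPKM. Region 3 held 9.59 and 8.65 FPKM in the controls and 10.1 and 8.91 FPKM in the stimulated animals, below every library of the other cord regions. The lesion was 0.57 above rostral cord (SE 0.17, limma adjusted p = 0.0300) and caudal cord 0.76 above it (SE 0.17, limma adjusted p = 0.0193) on the log2 scale. In white matter it ranged from 3.72 to 7.78 FPKM, below the 12 cord values without overlap, as 16.8% of all genes were.

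Over the set, Tgfb1 and Il33 were the 2 of 8 genes called between the lesion and rostral cord, both higher at the lesion, where 19.6% of all genes were called and 6.78% were called higher. The ranges of 5 of the 8 did not overlap (Il1a, Il1rn, Il18, Il33 and Tgfb1, all higher at the lesion), against 13.0% of all genes. The median difference of the 8 was 0.56 and that of all genes -0.02. Il18, an inflammasome product like interleukin 1 beta that acts on T and NK cells, is 1 of these, with 7.96, 5.42, 5.50 and 4.69 FPKM at the lesion and 3.81, 2.45, 3.81 and 3.09 FPKM in rostral cord, in the order control 1, control 2, stimulated 1 and stimulated 2. Its difference of 0.83 on the log2 scale was not called with 20 libraries (SE 0.43, limma adjusted p = 0.176) but was with 18 (SE 0.20, limma adjusted p = 0.00384). With 18 libraries 4 of 8 passed, Il1a, Il18, Il33 and Tgfb1, where 33.7% of all genes did. With the control animals alone it was Il1a, Il1rn, Il33 and Tgfb1, where 21.5% of all genes were called, and without stimulated animal 2 these and Il18, where 32.3% were. Without control animal 1, control animal 2 or stimulated animal 1 it was none, where 6.41%, 3.44% and 9.15% were.

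Between the lesion and caudal cord none of the 8 genes passed, where 7.99% of all genes did, and with 18 libraries Tgfb1 and Il1rn did, where 21.8% did. The median of the 8 was 0.42 there and 0.52 between caudal and rostral cord. Between caudal and rostral cord Il33 alone passed, higher, where 4.32% of all genes passed and 2.77% were higher. Without control animal 1, control animal 2 or stimulated animal 1 it did not (limma adjusted p = 0.104, 0.134 and 0.101). With 18 libraries Il33 and Tgfb1 passed, where 19.9% did. The median of all genes was -0.14 on the log2 scale between lesion and caudal cord and 0.11 between caudal and rostral cord, and -0.03 and -0.02 after quantile normalization, where Il33 was still 0.64 higher in caudal cord (limma adjusted p = 0.0222).

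Some immune markers differed between the cord regions too, though not always as the cytokines did. Of the cord means, those of Il1a, Il1b, Il1rn, Il6, Il18 and Tgfb1 were highest at the lesion. Il33 and Csf1 were highest in caudal cord, at 15.9 and 14.4 FPKM against 13.9 and 13.8 FPKM at the lesion. The 10 markers of microglia and macrophages summed to 248 to 565 FPKM at the lesion (lowest in stimulated animal 2), 114 to 183 FPKM in rostral and 230 to 287 FPKM in caudal cord, and the 8 phagocyte markers to 333 to 958, 98.1 to 149 and 311 to 423 FPKM. Neutrophil markers summed to 4.77 to 31.3 FPKM at the lesion and 5.91 to 14.0 FPKM in rostral cord, and T cell markers to 0.644 to 0.841 FPKM and 0.664 to 0.762 FPKM, so these lists overlapped. The part of cell composition in the cytokine values was not tested.

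**Figure D4:**
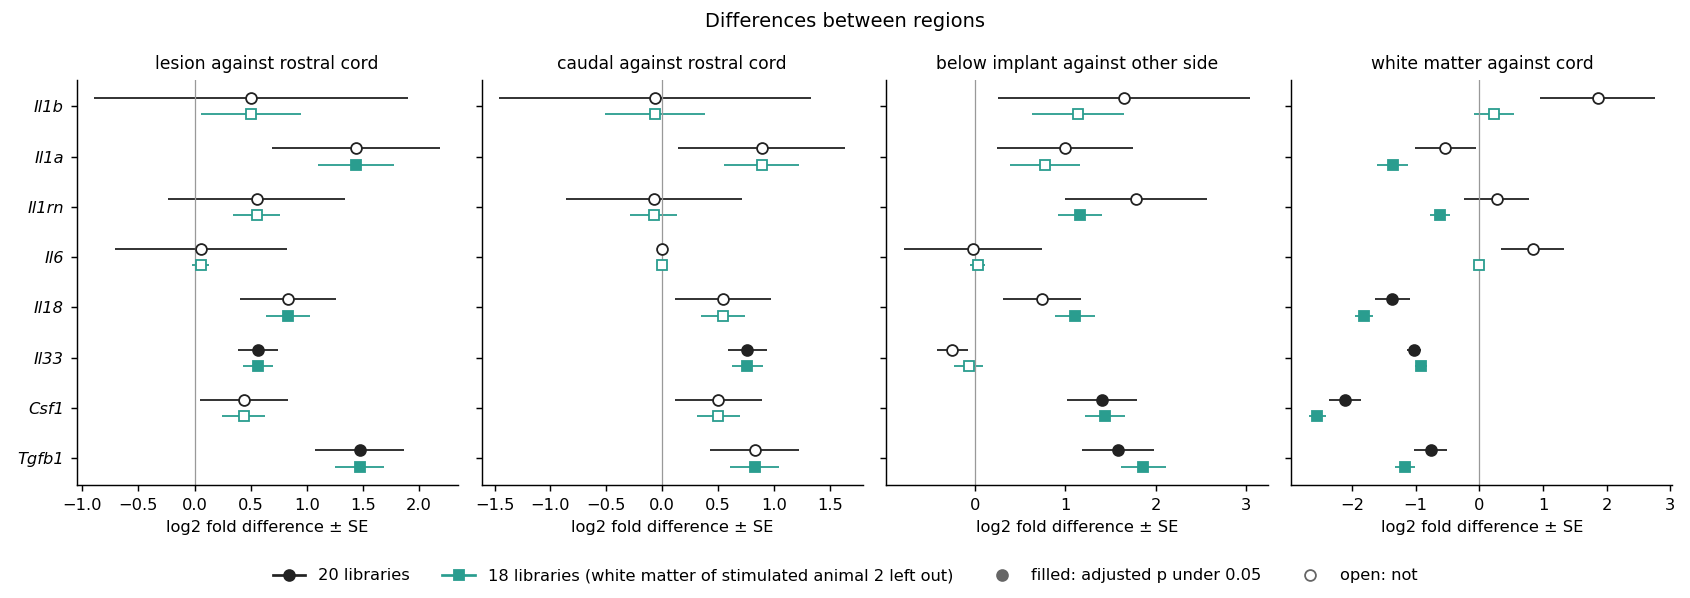
Differences between regions on the log2 scale with standard errors for 8 genes in 4 comparisons, from all 20 libraries (circles) and from 18 libraries without the white matter of stimulated animal 2 (squares), filled where the limma adjusted p was under 0.05. Tgfb1 and Il33 are filled in both between the lesion and rostral cord, and the errors of Il1b, Il1a, Il1rn and Il6 are the ones that shrink most without those 2 libraries.

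In the brain, Csf1 and Tgfb1 were higher below the implant than in the other hemisphere. Csf1 in region 2 was at 1.31 FPKM in both controls and at 1.32 and 4.53 FPKM in stimulated animals 1 and 2, and each animal had more in region 1 (values above). The difference was 1.41 on the log2 scale, or 2.65-fold (SE 0.39, limma adjusted p = 0.0337). Tgfb1 in region 2 was at 1.01 and 0.662 FPKM in the controls and at 0.798 and 3.62 FPKM in the stimulated animals, again less than in region 1 of the same animal, and differed by 1.58, or 2.99-fold (SE 0.40, limma adjusted p = 0.0211). The ranges of both genes overlapped between the regions because stimulated animal 2 was high on either side. Without its 2 libraries the differences were 1.44 and 1.86 (limma adjusted p = 0.000253 and 9.26e-05).

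These 2 genes were the 2 of 8 called between regions 1 and 2, where 8.61% of all genes were called and 6.86% were higher in region 1. The median difference of the 8 was 1.20 and that of all genes 0.06. With 18 libraries Il1rn and Il18 were called as well, at 1.16 (SE 0.25, limma adjusted p = 0.00275) and 1.11 (SE 0.23, limma adjusted p = 0.00206), where 21.9% of all genes were. Il1b and Il1a were 1.65 (SE 1.40) and 0.99 (SE 0.75) higher below the implant (limma adjusted p = 0.510 and 0.449), and Il33 was lower by -0.25 (SE 0.17, limma adjusted p = 0.402). Leaving out control animal 1, control animal 2 or stimulated animal 1 ended both calls, where 0.625%, 0.638% and 0.171% of all genes were called, and leaving out stimulated animal 2 gave 4, where 24.2% were. In the control animals alone, which had the implant and no current, Csf1, Tgfb1 and Il1rn were called higher in region 1, where 7.99% of all genes were called, and in the stimulated animals alone 0 of the 8 genes and 0.00% of all genes were. Since the implant was always on the same side of the brain relative to the injury, the implant and the hemisphere cannot be told apart in this comparison. Markers of several cell types moved with it. Higher in region 1 were 5 of 6 oligodendrocyte markers, 4 of 5 fibroblast and meningeal, 4 of 8 phagocyte, 2 of 6 astrocyte, 2 of 5 spinal neuron, 1 of 5 endothelial and 1 of 10 microglia and macrophage markers tested, and none was lower. The last list summed to 148 to 264 FPKM in region 1 and 55.9 to 72.0 FPKM in region 2 of the other 3 animals and to 442 and 469 FPKM in stimulated animal 2. The part of these cells in the result was not tested.

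Between white matter and cord, 4 of 8 genes were lower in white matter, where 72.2% of all genes were called and 47.1% were lower. Csf1 was 4.32-fold lower (-2.11, SE 0.25, limma adjusted p = 4.32e-07), Il18 2.58-fold lower (-1.37, SE 0.28, limma adjusted p = 0.000226), Il33 2.04-fold lower (-1.03, SE 0.11, limma adjusted p = 1.38e-07) and Tgfb1 1.70-fold lower (-0.76, SE 0.26, limma adjusted p = 0.0123). Cord values of Csf1 ran from 8.14 to 16.2 FPKM with a median of 13.6, against 1.31 to 4.69 FPKM in the 6 other white matter libraries and 11.2 and 4.53 FPKM in those of stimulated animal 2. Il1b differed by 1.86 in favor of white matter (SE 0.90, limma adjusted p = 0.0723), or by 0.23 with 18 libraries. With the animal as a block in the fit it passed (limma adjusted p = 0.0236). Il1b had passed the filter only through white matter of stimulated animal 2, so this comparison draws on the values that admitted it. Tgfb1 was no longer called without control animal 1, control animal 2 or stimulated animal 1. With 18 libraries Il1a and Il1rn joined the genes called lower, 6 in all, where 76.9% of all genes were called. The median of the 8 was -0.65, which includes Il1b and Il6, both admitted only by stimulated animal 2 and both higher in white matter. That of all genes was -0.18 in this comparison and -0.04 after quantile normalization.

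Csf1 and interleukin 34 are the 2 ligands of the receptor encoded by Csf1r, and between white matter and cord they differed in opposite directions. Il34 was at 8.74 to 11.8 FPKM in white matter and at 3.33 to 7.72 FPKM in cord. It was 0.99 higher in white matter (SE 0.08, limma adjusted p = 4.02e-09), where 25.0% of all genes were called higher. The ratio of Csf1 to Il34 was 1.64 to 3.38 in the 12 cord libraries and 0.129 to 0.462 in the 6 other white matter libraries. In region 1 of stimulated animal 2 it was 1.02, the highest of white matter. Il34 was chosen for this comparison after its values were seen.

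Ordering the 5 regions by the mean of log2 FPKM put region 4 first for Il1a, Il18 and Tgfb1, region 5 first for Il33 and Csf1, region 1 first for Il1b and Il1rn and region 2 first for Il6. Region 2 was last for Il1a, Il1rn, Il18, Csf1 and Tgfb1. With 18 libraries region 4 was first for Il1rn and Il6, region 2 was last for Il1b also, and the first place of the other 6 genes was as before. These orders were taken from the same values as the steps between them, so every direction was fixed in advance and the count is a description. Of 32 steps between neighbors, 4 passed the limma test. For Il33 these were region 4 above region 3 and region 3 above region 2 (0.46, SE 0.17, adjusted p = 0.0323), and for Csf1 region 3 above region 1 (1.09, SE 0.39, adjusted p = 0.0274) and region 1 above region 2. Of all genes, 6.78% were called higher in region 4 than in region 3 and 6.86% higher in region 1 than in region 2. The other 28 steps did not pass the limma test. Among them, the ranges of Il1rn in regions 4 and 3 and of Tgfb1 in regions 4 and 5 did not overlap.

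The genes through which these cytokines act were described by lists of receptors, of activation and release, of signaling and feedback, and of other cytokines, 77 tested genes in all. Between the lesion and rostral cord 17 were higher and 1 lower, where 6.78% of all genes were higher and 12.8% lower. Between regions 1 and 2 12 were higher and 0 lower, where 6.86% of all genes were higher and 1.76% lower. The counts with 18 libraries given below stand beside 15.0% of all genes higher at the lesion than in rostral cord and 19.5% higher in region 1 than in region 2. No gene of the lists was called with stimulation in any region.

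Of the receptor list 15 genes were tested and 6 were higher at the lesion than in rostral cord. Tgfbr1 and Tgfbr2, the signaling pair of the transforming growth factor beta receptor, were 1.37 (SE 0.29, limma adjusted p = 0.00379) and 1.22 (SE 0.32, limma adjusted p = 0.0137) higher, and Il6r, which binds interleukin 6, was 1.22 higher (SE 0.20, limma adjusted p = 0.000599). Il10ra and Il10rb, the chains of the interleukin 10 receptor, and Csf1r were also called, at 1.20, 1.14 and 1.21 (limma adjusted p = 0.0493, 0.0306 and 0.0296). Tnfrsf1a and Tnfrsf1b, the receptors of tumor necrosis factor, were 0.89 and 1.51 apart without being called (limma adjusted p = 0.148 and 0.0626). Il1rl1, the receptor of interleukin 33, differed by 1.39 (limma adjusted p = 0.0602) and Il1r1, the receptor of interleukin 1, by 0.45 (limma adjusted p = 0.400). Il18r1 did not reach 1 FPKM in any library. So receptors for Tnf and Il10 were measured in tissue where the ligands were at the floor.

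Between regions 1 and 2, 4 of 15 receptors were higher below the implant. Il1rap, the accessory chain of the interleukin 1 receptor, was 0.36 higher (limma adjusted p = 0.0178), Tnfrsf1a 1.50 (SE 0.43, limma adjusted p = 0.0392), Tgfbr2 1.18 (SE 0.32, limma adjusted p = 0.0316) and Tgfbr1 1.01 higher (SE 0.29, limma adjusted p = 0.0415). With 18 libraries the count was 14 of 15 there and 12 of 15 at the lesion against rostral cord. Il1r2, the decoy receptor of interleukin 1, was named after its values were seen, with 13.7 FPKM in region 1 and 0.808 FPKM in region 2 of stimulated animal 2 and at most 0.152 FPKM elsewhere.

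Among 20 tested genes of activation and release, 6 were higher at the lesion than in rostral cord. Nrros, which anchors latent transforming growth factor beta on microglia, was 1.75 higher (SE 0.29, limma adjusted p = 0.000689), Il18bp, which traps interleukin 18, 1.64 (SE 0.41, limma adjusted p = 0.0099) and Aim2, an inflammasome sensor of DNA, 1.44 (SE 0.46, limma adjusted p = 0.0337). Between regions 1 and 2, 4 of 20 were higher, led by Lrrc32, another anchor of latent transforming growth factor beta, at 1.06 (SE 0.26, limma adjusted p = 0.0174), Adam17, the protease that sheds tumor necrosis factor, at 0.76 (SE 0.23, limma adjusted p = 0.0472) and Ltbp3, which binds latent transforming growth factor beta, at 0.49 (SE 0.11, limma adjusted p = 0.0151). With 18 libraries the counts were 14 and 15 of 20.

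Of 24 tested genes of signaling and feedback, 2 were higher at the lesion, Smad3, the mediator of transforming growth factor beta (0.71, SE 0.12, limma adjusted p = 0.000581), and Ripk1, a kinase at the tumor necrosis factor receptor (0.67, SE 0.22, limma adjusted p = 0.0432). Between regions 1 and 2, 3 were higher, namely the interleukin 1 receptor kinases Irak3 (0.95, SE 0.23, limma adjusted p = 0.0181) and Irak4 (0.94, SE 0.29, limma adjusted p = 0.0464) and the adaptor Traf6 (0.40, SE 0.11, limma adjusted p = 0.0283). With 18 libraries the counts were 13 and 11. Socs3, the feedback inhibitor of interleukin 6 signaling, named after its values were seen, was at 39.2 and 12.4 FPKM in regions 1 and 2 of stimulated animal 2 and at 0.269 to 2.42 FPKM in the other white matter libraries.

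Among 18 tested genes of other cytokines, 3 were higher and 1 lower at the lesion than in rostral cord. The lower 1, named after its value was seen, was Mif, an inhibitor of macrophage migration, at -0.42 (SE 0.13, limma adjusted p = 0.0248). Gdf15, a stress-induced member of the transforming growth factor beta family, had 2.74 and 2.57 FPKM in the controls and 1.09 and 0.561 FPKM in the stimulated animals at the lesion, and 0.1 to 0.277 FPKM in rostral cord (3.21, SE 0.74, limma adjusted p = 0.00619). Cntf, the neurotrophic factor of astrocytes and Schwann cells, was 0.55 (SE 0.19, limma adjusted p = 0.0449) and Tnfsf13 0.51 higher (SE 0.16, limma adjusted p = 0.0348). Between regions 1 and 2 Ctf1, a ligand of gp130, was the only 1 called, 0.60 higher (SE 0.16, limma adjusted p = 0.0291). Osm, a further ligand of gp130 made by leukocytes, named after its values were seen, was at 6.84 FPKM in region 1 and 0.864 FPKM in region 2 of stimulated animal 2 and at 0.1 to 0.223 FPKM in the other 6 white matter libraries.

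Pearson's r of log2 FPKM over the 20 libraries named the genes whose pattern was most like that of each member. The libraries share animals and regions, so r is given as a description. For Tgfb1 the highest were Pik3cg, RGD1565785 and Cmklr1 (r = 0.989, 0.988 and 0.987), and for Il18 they were Nod1, Fut4 and Mvp (r = 0.982, 0.978 and 0.977), with values of 0.983 to 0.995 in the 15 libraries of the other 3 animals. For Csf1 they were Carhsp1, Ampd3 and Ginm1 (r = 0.981, 0.976 and 0.974) and for Il33 Cxcl14, Haus3 and Lmod1 (r = 0.959, 0.953 and 0.946). For Il1a they were Themis2, Gadd45g and Tagap (r = 0.936, 0.936 and 0.935). For Il1b they were Ccr7, Cxcl2 and Il18rap (r = 0.965, 0.964 and 0.960), which fell to 0.619, 0.705 and 0.540 in the other 3 animals, and for Il1rn Col4a2, Clec4d and Nfe2 (r = 0.946, 0.940 and 0.937), which fell to 0.781, 0.709 and 0.632. The 3 genes most like Il6 were gene models without a common symbol, at r = 0.998 to 0.999, and 2 of them did not vary in the other 3 animals. The likeness of Il1b, Il1rn and Il6 thus rested largely on stimulated animal 2, and that of Il18, Il33, Csf1 and Tgfb1 did not.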

How the data were processed

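RNA-seq was done on 20 libraries, from 5 regions of 2 control and 2 stimulated rats. The authors depleted ribosomal RNA, aligned paired reads to Rnor6 with TopHat2 2.1.0 and deposited FPKM values per gene from Cufflinks 2.2.1, already raised to 0.1 where lower. FPKM holds no read numbers, so the depth behind a value is unknown, and precision rests on the spread between animals. Values were log2-transformed, and the 15210 of 30443 genes with at least 1 FPKM in any library were tested with limma 3.58.1 (R 4.3.3, lmFit and eBayes with trend), adjusted by Benjamini-Hochberg over all of them at 0.05. Regions were compared over all 20 libraries with 1 mean per region, and stimulation within the 4 libraries of each region. The fits were tested on simulated data. No column was without a sample. Genes named were the 10 members, their receptors, the 3 largest called changes of each pathway list between regions 4 and 3 and between regions 1 and 2, and the 3 genes most like each member. Members and lists were chosen with earlier results of these data known. Libraries of an animal pair across regions by design (mean correlation of their deviations from the region means 0.588 for regions 1 and 2, 0.208 for 3 and 4, 0.028 for 4 and 5). The animal was used as a block in an alternative fit. Promoter windows were read from RefSeq on GRCr8 and motifs were searched on both strands. Figures used matplotlib 3.10.9 in Python 3.11.15.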

Additional observations from a re-analysis of the deposited data

Results flagged for a closer look

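Of 38 sets of 4 libraries (a gene in a region), 12 had a library whose gap to the nearest other exceeded Dixon's 95% critical value for 4 samples. Chance passes this test in about 1 in 20 sets of normally distributed values. The gap was taken on FPKM rather than log2 FPKM and values at the floor were kept. The sets also share libraries, so that rate need not hold here. In 11 of the 12 the library was that of stimulated animal 2 and was high. Of these 11, 4 were of Il1b and Il6, which were tested only because they were high in these libraries, and the 6 other genes had 8 of the 12 in 30 sets. In region 1 these were Il1b at 69.0 FPKM, where the next library had 0.591, Il1rn at 20.3 (next 0.953), Il1a at 4.79 (next 0.599) and Il6 at 0.982 (next 0.106). In region 2 they were Il1b at 7.59 FPKM (next 0.333), Il1rn at 1.61 (next 0.421), Il1a at 1.53 (next 0.234), Il6 at 1.11 (next 0.1), Il18 at 4.93 (next 1.10), Csf1 at 4.53 (next 1.32) and Tgfb1 at 3.62 (next 1.01). The other was Csf1 in region 3 of control animal 2, at 16.2 FPKM where the next library had 9.24.

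Csf1 was higher with stimulation in regions 1 and 2 and lower in region 3, each without overlap between the groups. Of all genes, 21.2%, 20.2% and 24.7% were apart in these directions in regions 1, 2 and 3. In region 2 the separation was 1.32 against 1.31 FPKM. Csf1 was 1.22 higher in region 1 and 0.90 higher in region 2 but lower by -0.55 in region 3 on the log2 scale. The effects thus differed by 1.77 and by 1.45. These differences were not tested. Without stimulated animal 2 the difference was 0.59 in region 1 and 0.01 in region 2, and without control animal 2 it was -0.14 in region 3.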

How the results depend on the processing

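Recomputing 38 log2 differences of single genes under the alternatives gave 542 values, of which 486 kept both direction and side of the threshold, 32 lost and 24 gained a call and 0 turned. Counts of genes called moved most with the animals used. Between lesion and rostral cord the count of 2 became 1 without a filter and with 10 group means, 4 in control animals alone, 0 in stimulated animals alone, 4 with 18 libraries and 4 with the 12 cord libraries alone, and 0 to 5 with an animal left out. Between lesion and caudal cord 0 became 1 in control animals alone and 2 with 18 libraries, and 0 to 1 with an animal left out. Between caudal and rostral cord 1 became 0 without a filter, in control animals alone and in stimulated animals alone, 2 with 18 libraries and 2 with 12, and 0 to 1 with an animal left out. Between regions 1 and 2 the count of 2 became 1 on log2(FPKM + 1), 0 without a filter, 3 in control animals alone, 0 in stimulated animals alone and 4 with 18 libraries, and 0 to 4 with an animal left out. Between white matter and cord 4 became 5 with quantile normalization, with 10 group means and with the animal as a block. It became 6 in control animals alone, 2 in stimulated animals alone and 6 with 18 libraries, and 3 to 6 with an animal left out. Neighboring steps came from orders taken from the same data, so their count is a description. Their 4 calls became 0 without a filter, 2 with 10 group means and 9 in control animals alone. They became 0 in stimulated animals alone, 11 with 18 libraries and 0 to 11 with an animal left out. For stimulation, leaving out an animal left a lone library in a group, so sizes alone are given. Over the alternatives the log2 difference of Il1a ran from 1.12 to 4.12 in region 1 and from 0.25 to 2.95 in region 2. That of Il1rn ran from 0.59 to 5.00 and from 0.56 to 2.49, and that of Il1b from 0.72 to 7.76 and from 1.44 to 5.95. Il1b and Il6 were tested only because of stimulated animal 2, so fits that rest on it restate the filter for them. The genes tested were kept at the 15210 when animals were left out. The cause of these changes was not tested.

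Control and stimulated animals share only a replicate number (correlations of deviations -0.21, -0.10, -0.11, 0.32 and -0.16 in regions 1 to 5). With the number as a block, or crossed, 0 of the 8 genes were called with stimulation in every region, where of all genes 443 were called in region 5 with the number and 118 in region 4 when crossed, and 0 elsewhere. With the animal as a block, Il1b, admitted only by stimulated animal 2, joined the genes called between white matter and cord. No other call of the 8 changed. The share of calls that were higher was 34.6% between lesion and rostral cord and 46.0% after upper-quartile scaling, and in the order lesion against caudal, caudal against rostral cord, regions 1 against 2 and white matter against cord it was 11.7%, 64.2%, 79.6% and 34.7%, or 41.5%, 39.2%, 52.9% and 45.6% after quantile normalization. The 18-library, 12-library and crossed alternatives were chosen after seeing the data. Low FPKM values near 0.1, as of Il1b, Il1a and Il6 in most libraries, carry no read numbers, so their counting error is unknown.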
